A study of Homo sapiens with 19 samples.

Results

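The 10 genes described here encode enzymes of the 10 steps of glycolysis: HK1, GPI, PFKL, ALDOA, TPI1, GAPDH, PGK1, PGAM1, ENO1 and PKM. They were taken by name, 1 gene for each step, from the 19942 protein-coding genes with values, and all 10 had values in every kind of library. In the transcript table they had 136 of 256980 transcripts. All samples were SH-SY5Y cells, an established human neuroblastoma line with noradrenergic neuronal features. The study examined G3BP1 and G3BP2, the RNA-binding proteins that nucleate stress granules (SGs), and the RNAs that enter SGs when cells are treated with sodium arsenite (AS), an oxidative stressor that stops translation initiation. Enhanced crosslinking and immunoprecipitation (eCLIP), which sequences the RNA fragments crosslinked to an immunoprecipitated protein, was carried out for G3BP1 and for G3BP2 in untreated and in AS-treated cells, with 2 libraries per group. RNA-seq of cells transfected with a control siRNA (siCtrl), an siRNA against G3BP1 (siG3BP1) or an siRNA against G3BP2 (siG3BP2) had 1 library each. SG cores pulled down with an antibody to G3BP1 from AS-treated lysate (SG) and the cleared lysate itself (Total) also had 1 library each, as had rRNA-depleted RNA of untreated and of AS-treated cells. The labels of the rRNA-depleted AS library give 500 µM AS for 1 h. Those of the other libraries name 50 mM for 1 h, including libraries labelled as untreated or as knockdowns, so the labels settle neither the dose nor whether the knockdown cells received AS. The study's methods give 500 µM for 1 h and describe no AS step in the knockdown.

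Glycolysis turns glucose into pyruvate in the cytosol. In the first 5 steps ATP is spent to phosphorylate the sugar, which is split into triose phosphates, and the later enzymes oxidize the trioses and regain ATP and NADH. In neurons and in neuroblastoma cells the pathway supplies pyruvate to mitochondria. Several of its mRNAs are among the most abundant and most stable messages of proliferating cells. SG RNAs are known to be long and poorly translated on average, whereas several of the mRNAs described here are short and abundant.

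In GRCh38 coordinates the members lie on 8 chromosomes apart from each other, except that GAPDH (chr12:6534512-6538374) and TPI1 (chr12:6867119-6870948) share an arm of chromosome 12, and HK1 (chr10:69269984-69401884) and PGAM1 (chr10:97426191-97433444) share chromosome 10. ENO1 (chr1:8861000-8879190) and PKM (chr15:72199029-72231819) are on the minus strand. GPI (chr19:34359480-34402413), PFKL (chr21:44300051-44327376), ALDOA (chr16:30064164-30070457) and PGK1 (chrX:77910739-78129295) are, like the remaining members, on the plus strand. Their canonical transcripts ran from 1285 nt (GAPDH) to 4812 nt (PGK1), of which 3468 nt in PGK1 were 3′ UTR. GC content ran from 42.8% (PGK1) to 63.4% (PFKL). Annotated genes overlap several members. A readthrough gene (ENSG00000285043) covers 6251 bases of ALDOA on the same strand and was itself at 447 TPM in siCtrl, ENSG00000266953 lies within GPI at 22.8 TPM, and ATP7A overlaps 139657 bases of the PGK1 locus. Reads of ALDOA, GPI and PGK1 could therefore be split between annotations. The members also have 95 annotated processed pseudogenes, 65 of them of GAPDH. The largest pseudogene signal in the rRNA-depleted libraries was that of ENO1P4, at 3.79 in untreated and 4.77 in AS-treated cells, against 1064 and 1230 for ENO1.

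PKM is the member whose isoforms are best known. Its transcripts carry either of a pair of mutually exclusive exons, giving the constitutively active PKM1 of adult muscle and neurons or the allosterically regulated PKM2 of proliferating cells. Both exons are 167 nt long, and they were identical at 105 positions (62.9%) and differed at 62. They are shown because the rRNA-depleted table lists transcripts with either exon, and this is the stretch by which reads can tell them apart. Both are given 5′ to 3′ on the minus strand of GRCh38, with capitals at the positions where they differ. The exon of PKM2 is chr15:72202454-72202620 and that of PKM1 is chr15:72203022-72203188.
PKM2 exon: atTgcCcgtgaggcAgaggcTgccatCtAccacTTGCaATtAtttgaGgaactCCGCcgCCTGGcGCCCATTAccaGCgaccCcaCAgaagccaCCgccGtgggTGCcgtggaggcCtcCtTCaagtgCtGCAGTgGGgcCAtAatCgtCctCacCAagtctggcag
PKM1 exon: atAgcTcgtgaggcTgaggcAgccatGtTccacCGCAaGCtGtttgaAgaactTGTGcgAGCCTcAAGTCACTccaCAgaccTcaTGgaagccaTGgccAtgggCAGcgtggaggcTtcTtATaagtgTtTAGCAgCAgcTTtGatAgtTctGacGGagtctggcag

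The cells carried the markers expected of the line. Of 11 noradrenergic neuroblastoma markers, 10 were above 10 TPM in siCtrl, up to 874 TPM for HAND2, while TH was at 0.304 TPM. Of 6 markers of other cell types 5 were below 1 TPM and COL1A1 was at 12.6 TPM. G3BP1 was at 18.7 TPM in siCtrl, 6.0 in siG3BP1 and 16.5 in siG3BP2, and G3BP2 at 38.1, 39.4 and 11.4 TPM, so that each siRNA library had less of its own target. TPM of protein-coding genes summed to between 623955 and 735927 per library, and TPM gives no read depth. The numbers recovered from the eCLIP values summed to between about 4270000 and 26200000 per library, always lower in replicate 2 than in replicate 1 of a group. With 1 library in each RNA-seq condition, the RNA-seq differences have no replicate check and carry no p-value.

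TPM is scaled for transcript length, so levels can be compared between genes, and across the 10 steps the mRNAs differed widely. In siCtrl the highest member was at 92.4 times the TPM of the lowest, and the members summed to 11355 TPM, 1.76% of all protein-coding TPM. GAPDH, which oxidizes glyceraldehyde 3-phosphate and makes the first NADH of the pathway, supplied 61.6% of that sum. It was at 6994 TPM in siCtrl, 7466 in siG3BP1, 7653 in siG3BP2, 8061 in Total and 1325 in SG. GAPDH ranked 1 among all protein-coding genes in every library but SG, where it ranked 6.

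ENO1, the enolase that makes phosphoenolpyruvate, was next. It was at 1182, 1213, 1329, 1444 and 555 TPM in siCtrl, siG3BP1, siG3BP2, Total and SG. ALDOA, the aldolase that cleaves fructose 1,6-bisphosphate, was at 885, 984, 1020, 987 and 275 TPM in the same order. The readthrough gene over ALDOA held a further 447 TPM in siCtrl and 145 in SG. The place of ALDOA among the members thus depends on how reads were split, which was not tested. PKM, the pyruvate kinase of the last step, was at 884, 749, 940, 956 and 751 TPM. ALDOA and PKM were level in siCtrl but lay far apart in SG, where the rank of PKM among all genes went from 98 in siCtrl to 38. TPI1, which interconverts the triose phosphates, was at 732, 850, 903, 916 and 295 TPM.

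PGAM1, the phosphoglycerate mutase, had intermediate levels of 266, 263, 276, 225 and 201 TPM. GPI, which isomerizes glucose 6-phosphate, was at 131, 118, 130, 114 and 222 TPM. PGK1, the kinase that makes the first ATP of the payoff phase, was at 109.5, 107, 119, 121 and 104 TPM. The lowest members in siCtrl were HK1 and PFKL. HK1, the hexokinase that traps glucose and can sit on the mitochondrial outer membrane, was at 96.2, 79.9, 80.6, 78.8 and 158 TPM. PFKL, a subunit of the rate-setting phosphofructokinase, was at 75.7, 61.8, 58.5, 60.4 and 64.5 TPM. The plot of TPM by gene shows that SG was the library in which the span between members was smallest, with a highest-to-lowest fold of 20.5 against 92.4 to 133 in the others.

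**Figure D1:**
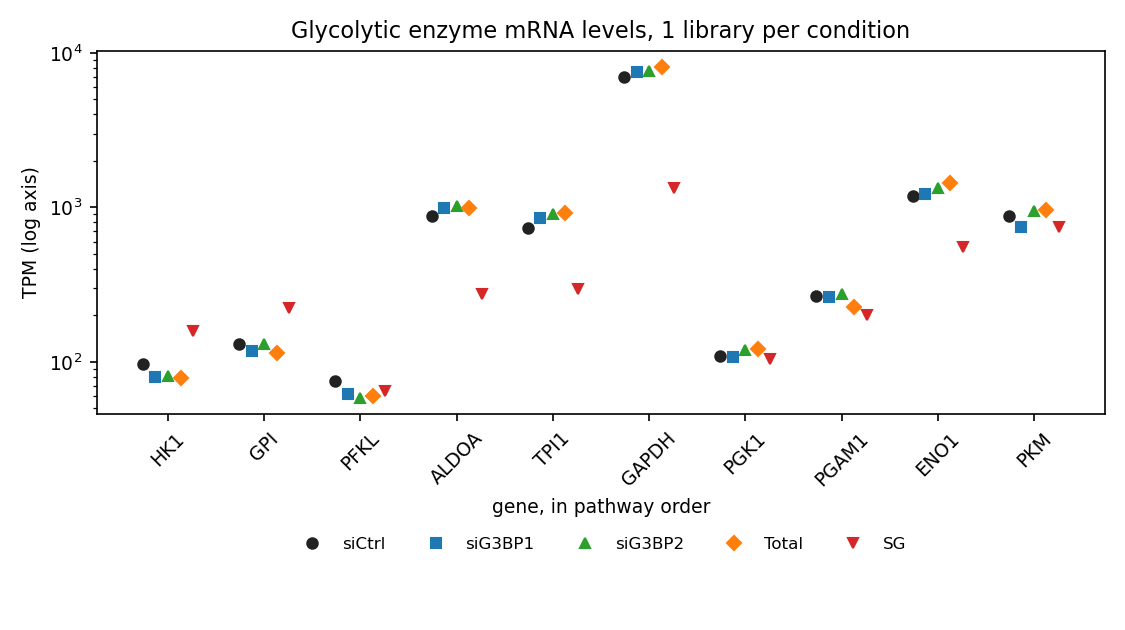
TPM (log axis) of the 10 glycolytic enzyme genes in pathway order, with 1 point for each of the 5 libraries siCtrl, siG3BP1, siG3BP2, Total and SG. The siRNA and Total points of a gene lie close together, while the SG points of ALDOA, TPI1, GAPDH and ENO1 lie far below them and those of HK1 and GPI above them.

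The SG and Total libraries were compared to see how the mRNAs were distributed in SG cores relative to the lysate. Following the study's class rule, a gene was SG-enriched when the ratio of TPM + 1 was above 2 with more than 1 TPM in SG, and SG-depleted when it was below 0.5 with more than 1 TPM in Total. No member was SG-enriched, where 62.9% of the 13560 classed genes were. SG-depleted were 4 of 10 members (GAPDH, ALDOA, TPI1 and ENO1), where 9.45% of all genes were, and 6 fell in neither class. The members' summed TPM went from 12964 in Total to 3951 in SG, from 2.08% to 0.537% of protein-coding TPM, and the share of GAPDH in the members' sum went from 62.2% to 33.5%.

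The ratio of GAPDH was 0.164 (log2 −2.60), below that of all but 3.0% of genes. ALDOA had a ratio of 0.278 (log2 −1.84), TPI1 of 0.322 (log2 −1.63) and ENO1 of 0.385 (log2 −1.38). These 4 are neighbours in the pathway apart from PGK1 and PGAM1, which stand between GAPDH and ENO1 and were nearly level in both libraries, with ratios of 0.861 and 0.891. PKM, downstream of them, had a ratio of 0.786. The enzymes of the first 3 steps had ratios above 1, at 2.01 for HK1, 1.94 for GPI and 1.07 for PFKL. HK1 was just short of the class limit on TPM + 1 (fold 1.996), and was SG-enriched with a pseudocount of 0.1.

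All of these stand against a median ratio of 2.78 (log2 1.47) for the 10958 genes above 1 TPM in both libraries, with quartiles of 1.06 and 7.17. All 10 members lay below that median. HK1 was at percentile 40.9 and GPI at 40.0, and the other members were at or below percentile 25.3. If the median ratio was set to 1, genes classed as SG-enriched numbered 4505 in place of 8528 and SG-depleted genes 3271 in place of 1282, and 8 of 10 members were then SG-depleted, all but HK1 and GPI. The direction of HK1, GPI and PFKL thus changed with the scaling, while those of the other 7 members did not. SG was prepared with an antibody to G3BP1, and what the pulldown carries along unspecifically was not measured in a library used here.

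Transcript length moved with these ratios. Among the 10 members the ratio was higher for longer transcripts (Spearman ρ = 0.83, n = 10 genes, a description only, since genes of 1 pair of libraries are not replicates) and lower for genes with more TPM in Total (ρ = −0.89), and these properties go together in this set. In each of 4 classes of transcript length, every member lay below the median of its class. GAPDH and TPI1, both under 1500 nt, had ratios of 0.164 and 0.322 against a class median of 0.491. ALDOA, ENO1 and PGAM1, between 1500 and 2000 nt, were set against a median of 0.984, and only 3.68% of genes of that length had a lower ratio than ALDOA. PKM and PFKL, between 2000 and 3000 nt, stood against 1.92.

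The largest distance from the class median was that of PGK1, whose canonical transcript of 4812 nt is the longest of the members. Its ratio of 0.861 stood against a class median of 4.24 for 3000 to 5000 nt and was at percentile 4.0. HK1 and GPI belong to the same class, at percentiles 18.6 and 17.6. These classes rest on the canonical transcript. In untreated rRNA-depleted RNA, coding PGK1-206 of 2405 nt had a signal of 27.2 against 18.4 for canonical PGK1-201. Likewise GPI-205 of 1574 nt had 49.1 against 31.6 for GPI-201. Shared reads count for each transcript, and the length of the mRNA present was not tested. For 2000 to 3000 nt the median ratio was 1.92 and the lower quartile 1.13. When only genes above 50 TPM in Total were used, a limit chosen after the values were seen, the class medians dropped to between 0.263 and 1.98, and 7 of 10 members lay below them. PGAM1 (percentile 72.2), TPI1 (59.9) and HK1 (51.7) were then above, and PGK1 stayed low at percentile 17.6. Both length and abundance therefore moved with the ratio, and their separate parts were not tested.

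**Figure D2:**
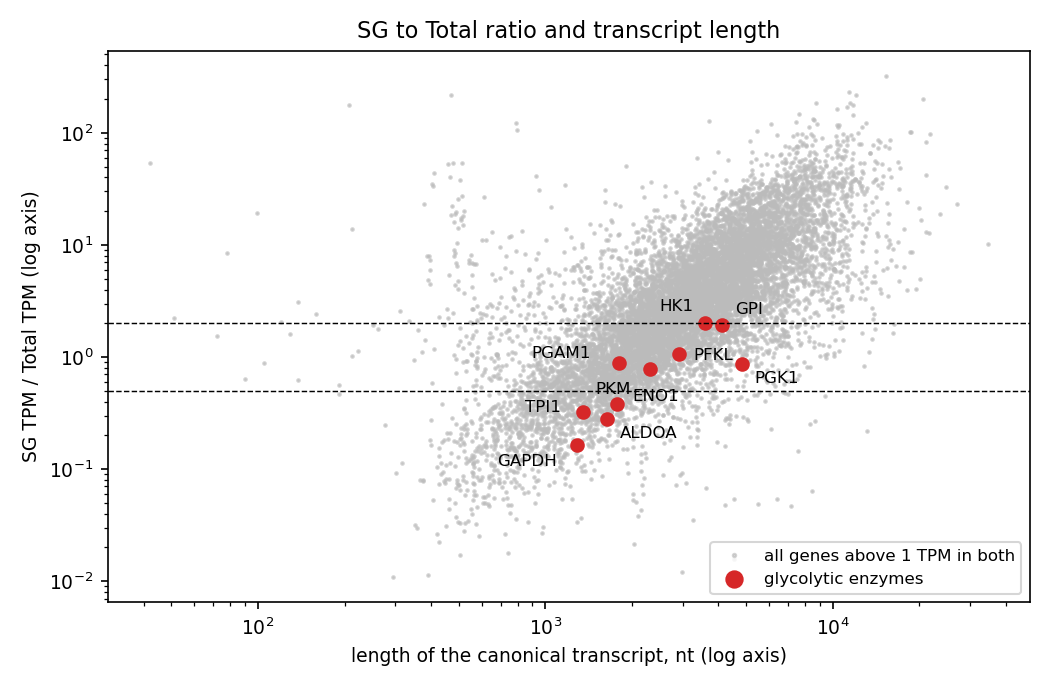
Ratio of SG TPM to Total TPM (log axis) against the length of the canonical transcript in nt (log axis) for genes above 1 TPM in both libraries (grey) and the 10 glycolytic enzyme genes (red), with dashed lines at ratios of 2 and 0.5. The members lie along the lower side of the grey cloud, from GAPDH at 0.164 to HK1 at 2.01, and PGK1 lies far below genes of its canonical length.

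Other groups of abundant housekeeping mRNAs had lower ratios than the glycolytic enzymes. Among 82 cytosolic ribosomal protein genes, 77 of 78 classed were SG-depleted, with a median ratio of 0.0576. Among 85 nuclear-encoded respiratory chain genes, 67 of 81 were SG-depleted and 3 SG-enriched, with a median of 0.133. The median of the glycolytic enzymes was 0.824. Their transcripts are also longer, with a median of 2053.5 nt against 816.5 and 758 nt.

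Of the other genes around the pathway, 77 in 5 lists, each list had a higher median ratio than the 10 members. The counts below stand against 62.9% SG-enriched and 9.45% SG-depleted among all 13560 classed genes. The medians stand against 2.78 for all genes above 1 TPM in both libraries. Among 17 further isoenzymes of the 10 steps, 11 were classed, of which 5 were SG-enriched and 1 was SG-depleted, with a median ratio of 1.57. HK2, the insulin- and hypoxia-responsive hexokinase, was at 7.38 TPM in Total and 161 TPM in SG, a fold of 19.4 on TPM + 1. HK1 exceeded it in Total at 78.8 TPM but not in SG at 158 TPM. PFKM, the muscle-type phosphofructokinase, went from 39.8 to 137 TPM (3.38-fold), and ADPGK, which phosphorylates glucose with ADP, from 18.7 to 48.8 TPM (2.53-fold). PFKP, the platelet-type subunit and the most abundant phosphofructokinase in siCtrl at 80.3 TPM, was level like PFKL, at 72.6 and 67.3 TPM.

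Among 18 genes of glucose uptake and lactate handling, 9 of 13 classed were SG-enriched, near the 62.9% of all genes. SG-depleted were 2 (LDHB and BSG), and the median was 1.82. The glucose transporter SLC2A1 went from 43.6 to 120 TPM (2.71-fold) and the monocarboxylate transporter SLC16A1 from 5.92 to 38.3 TPM (5.68-fold). The lactate dehydrogenase subunit LDHB, which is short and abundant, went from 621 to 193 TPM (0.311-fold), near the ratio of TPI1, while LDHA was at 254 and 154 TPM. Among 13 regulators of flux, 8 of 12 were SG-enriched, near the 62.9% of all genes, and 0 SG-depleted, with a median of 5.32. These included ARNT, the partner of the hypoxia-inducible factors (3.40 to 106 TPM, 24.2-fold), PFKFB3, which makes the activator of phosphofructokinase (7.71 to 129 TPM, 14.9-fold), and PDK3, which inhibits pyruvate dehydrogenase (1.03 to 24.0 TPM, 12.3-fold).

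Among 13 pentose phosphate pathway genes, 2 of 10 were SG-enriched and 3 SG-depleted, with a median of 1.04. H6PD, the glucose 6-phosphate dehydrogenase of the endoplasmic reticulum, had the largest fold of the lists, from 1.05 to 94.1 TPM (46.5-fold). RPE, the ribulose phosphate epimerase, went from 9.23 to 29.7 TPM (3.0-fold), and PGLS, a lactonase with a short mRNA, from 185 to 34.3 TPM (0.190-fold). Among 16 genes of gluconeogenesis and pyruvate entry, 4 of 12 were SG-enriched and 3 SG-depleted, with a median of 1.09. The pyruvate dehydrogenase subunits PDHX (5.67 to 45.6 TPM, 6.98-fold) and DLAT (12.8 to 64.7 TPM, 4.75-fold) were among the former, and the mitochondrial pyruvate carrier subunit MPC2 (36.1 to 4.99 TPM, 0.161-fold) was among the latter.

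**Figure D3:**
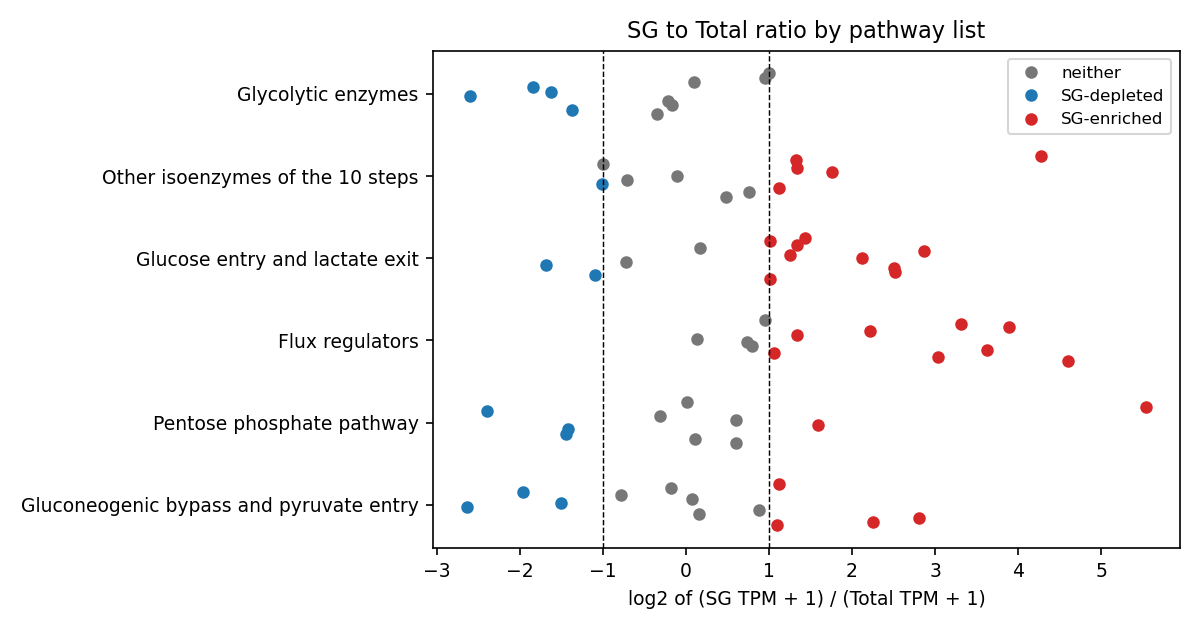
Log2 of the SG to Total fold on TPM + 1 for the 10 glycolytic enzymes and for the classed genes of the 5 other pathway lists, 1 point per gene coloured by SG class, with dashed lines at the class limits. The glycolytic enzymes lie between −2.60 and 1.00 and none is SG-enriched. Of the classed flux regulators 8 of 12 are, near the 62.9% of all classed genes.

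The knockdown libraries were compared with siCtrl, which both share, to see whether the members' levels moved when either G3BP was reduced. A gene was called when the ratio of TPM was above 2 or below 0.5 with more than 1 TPM in the higher library. No member was called in either. In siG3BP1, 2.53% of 12280 genes were called higher and 3.69% lower, and in siG3BP2, 2.43% of 12229 higher and 5.62% lower. The member ratios ran from 0.816 to 1.16 in siG3BP1 and from 0.773 to 1.23 in siG3BP2. The medians of all genes were 0.941 and 0.919, the latter a log2 shift of −0.12, and 6 and 8 of the members lay above them.

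TPI1, ALDOA, GAPDH and ENO1 had ratios above 1 in both knockdown libraries, and HK1, PFKL and GPI below 1 in both. PKM, PGK1 and PGAM1 were below 1 in siG3BP1 and above 1 in siG3BP2. TPI1 was at 1.16 in siG3BP1 and 1.23 in siG3BP2, ALDOA at 1.11 and 1.15, and GAPDH at 1.07 and 1.09. HK1 was at 0.830 and 0.837, and PFKL at 0.816 and 0.773, the lowest of the members in both. PKM was at 0.847 and 1.06 and GPI at 0.897 and 0.990. ENO1 was at 1.03 and 1.12, PGK1 at 0.976 and 1.09 and PGAM1 at 0.987 and 1.04. Because both comparisons use the same siCtrl library, a like ratio in both is not a second observation.

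In the other lists few genes were called. PC, the pyruvate carboxylase, was at 19.0 TPM in siCtrl, 9.26 in siG3BP1 and 15.6 in siG3BP2. It was called lower in siG3BP1. The lactate exporter SLC16A3 (1.12, 0.225 and 0.328 TPM) and the transporter SLC2A10 (2.05, 0.476 and 0.431 TPM), low genes named here after their values were seen, were called lower in both.

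Total was set beside siCtrl. By the study's methods Total is RNA of the lysate of AS-treated cells after low-speed centrifugation, whose pellet is not in it, so AS treatment, transfection and preparation cannot be told apart in this pair. No member was called, while 2.37% of 12173 genes were higher and 27.2% lower. The member ratios ran from 0.798 (PFKL) to 1.25 (TPI1), with 1.22 for ENO1, 1.15 for GAPDH, 1.12 for ALDOA and 0.846 for PGAM1. The median of all genes was 0.750 (log2 −0.41), and all 10 members were above it. With that median set to 1, 678 genes were higher and 1951 lower in place of 288 and 3311, and still no member was called. In the lists, HK2 (18.3 to 7.38 TPM), ARNT (18.6 to 3.40 TPM), PFKFB3 (17.6 to 7.71 TPM) and H6PD (6.21 to 1.05 TPM) were called lower in Total, the library against which their SG ratios were taken. FBP1, a fructose bisphosphatase of gluconeogenesis, was called higher (10.8 to 27.3 TPM).

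The rRNA-depleted libraries addressed what 1 h of AS did to the transcripts of the whole cell. The values are a signal per transcript, and reads that fit several transcripts were counted for each of them, so sums over a gene are compared between the libraries but not between genes. The steps of the values correspond to 13291959 reads without AS and 11281587 with AS, and all member values above 0 were whole numbers of reads within 0.01. No member was called at a ratio of 2 or 0.5, where 9.53% of 16167 genes were higher and 3.9% lower. The members took 1.18% of the signal in both libraries. In bulk samples, fewer cells of a kind and less RNA per cell cannot be told apart.

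All 10 members had sums above those of untreated cells, and so had most genes, with a median ratio of 1.20 (quartiles 1.04 and 1.40). HK1 went from 87.1 to 94.1 (ratio 1.08), GPI from 300.0 to 315 (1.05) and PFKL from 41.6 to 51.9 (1.25). ALDOA went from 1482 to 1699 (1.15), TPI1 from 835 to 964 (1.15) and GAPDH from 6124 to 7455 (1.22). PGK1 went from 109 to 130 (1.19), PGAM1 from 45.4 to 55.6 (1.22), ENO1 from 1064 to 1230 (1.16) and PKM from 1709 to 1892 (1.11). Only GAPDH, PFKL and PGAM1 lay above the median of all genes, and all 10 were between percentiles 26.1 and 56.9. With the median ratio set to 1, all genes called numbered 850 higher and 868 lower in place of 1541 and 630, no member was called, and 7 of 10 members were below 1.

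The canonical transcripts gave the counting precision behind these ratios. The 95% exact binomial intervals below cover counting error only, not the difference between cultures. GAPDH-201 had 11503 reads in untreated and 11904 in AS-treated cells, for a depth-scaled ratio of 1.22 (1.19 to 1.25). PKM-202 had 5218 and 5008 reads, for 1.13 (1.09 to 1.18), and ENO1-201 had 3456 and 3388 reads, for 1.16 (1.10 to 1.21). GPI-201 had 1731 and 1559 reads, for 1.06 (0.990 to 1.14), and HK1-202 had 745 and 695 reads, for 1.10 (0.990 to 1.22). ALDOA-218 had 2626 and 2586 reads, for 1.16 (1.10 to 1.23), and TPI1-202 had 2546 and 2504 reads, for 1.16 (1.10 to 1.22). PGK1-201 had 1177 and 1207 reads, for 1.21 (1.11 to 1.31), and PGAM1-201 had 687 and 690 reads, for 1.18 (1.06 to 1.32). PFKL-201 had 216 and 231 reads, which allowed 1.04 to 1.52 around 1.26. The median ratio of all transcripts, 1.19, was within the interval of 8 of 10 members, and the intervals of GPI and PKM lay below it.

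**Figure D4:**
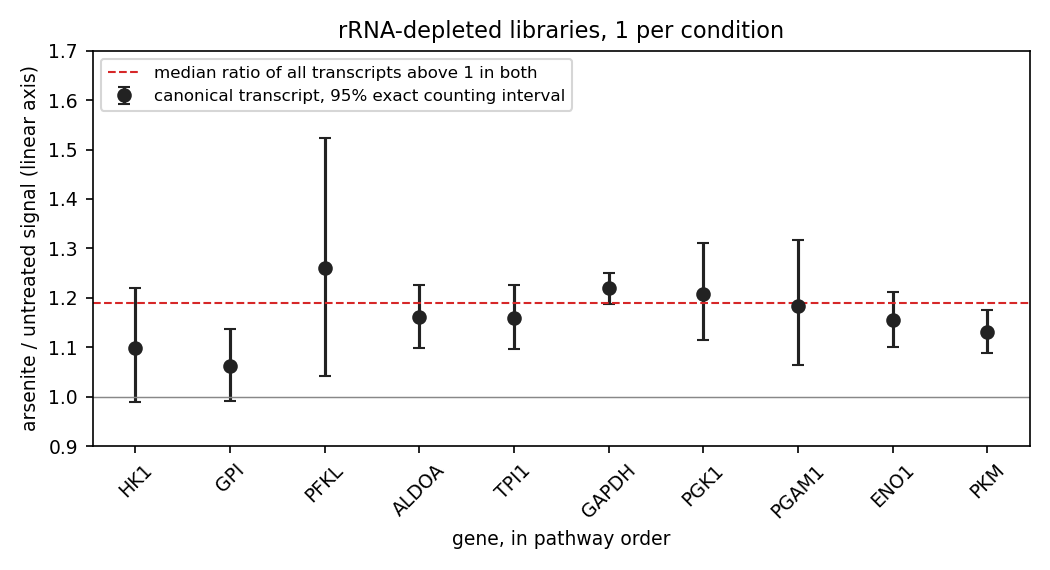
Ratio of AS-treated to untreated signal (linear axis) of the canonical transcript of each glycolytic enzyme gene, in pathway order, with bars for the 95% exact counting interval and 1 library per condition. The dashed line marks the median of all transcripts at 1.19, which only the intervals of GPI and PKM miss.

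Of the 136 member transcripts, 115 passed 1 in at least 1 library and none was called, where 6.76% of 96575 transcripts were higher and 2.02% lower. With the median ratio set to 1 the calls over all transcripts went from 6525 higher and 1950 lower to 3057 and 3266, and 1 member transcript, HK1-212, was called lower. Ratios ran from 0.558 for HK1-212, on 19 and 9 reads, to 1.81 for ALDOA-213, on 58 and 89 reads (interval 1.28 to 2.56). The 62 protein-coding member transcripts had a median ratio of 1.14 against 1.21 for all 44547, and 36 retained-intron transcripts had 1.14, as did all 15524. Retained introns ran from 0.747 to 1.81, and 5 of the 36 had ratios below 1. PKM held 4 of these 5, PKM-207 (660 and 549 reads), PKM-208 (151 and 104), PKM-212 (71 and 45) and PKM-223 (23 and 16). Their ratios were 0.980, 0.811, 0.747 and 0.820, and the 4 intervals, 0.874 to 1.10, 0.626 to 1.05, 0.502 to 1.10 and 0.405 to 1.62, all held 1.

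Transcripts with the PKM1 exon and with the PKM2 exon, shown above, had overlapping ranges of ratios. The 5 transcripts with the PKM1 exon had signals of 65.4 to 125 in untreated and 72.7 to 142 in AS-treated cells, with ratios of 1.10 to 1.14. The 3 with the PKM2 exon had 138 to 170 and 152 to 193, with ratios of 1.10 to 1.13. Most of the reads of either kind come from exons that both share, so the values give no ratio of PKM1 to PKM2, and a shift between them was not detectable in this table.

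In the 5 lists, no gene was called lower under AS. PCK2, the mitochondrial PEP carboxykinase, was called higher and went from 4.15 to 9.67. TIGAR, a fructose bisphosphatase induced by p53 and a low gene named after its values were seen, was called higher and went from 2.32 to 5.06. LDHA went from 184 to 137, the opposite way to the members, without being called.

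The eCLIP libraries asked which RNAs G3BP1 and G3BP2 touch. The deposited values are log10 of a number plus 1 for each gene and library, and the sources used here do not say which steps of read and peak processing that number includes. The duplicates are separate libraries, and where nothing says that they came from separate cultures their spread may be technical. Both duplicates of all 10 members were above 0 for G3BP1 and for G3BP2 in untreated cells, as in 89.1% and 91.9% of all genes. Under AS the same was true of 9 members for each protein, with 86.4% and 90.4% of all genes, and the exception was GAPDH in both.

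HK1 had the highest value of the members in 8 of 8 libraries. In untreated cells it was 3.71 and 2.86 for G3BP1 and 3.74 and 3.09 for G3BP2. Under AS it was 3.45 and 2.88 for G3BP1 and 3.53 and 3.18 for G3BP2. PGK1 had 2.97 and 2.5 without AS and 2.97 and 2.26 with AS for G3BP1, and 3.02 and 2.45 without and 3.10 and 2.54 with AS for G3BP2. PKM had 2.99 and 2.33 without AS and 3.04 and 1.57 with AS for G3BP1, and 3.01 and 2.62 without and 3.17 and 2.16 with AS for G3BP2. In each of these groups replicate 2, the smaller library, was lower, and the untreated and AS-treated values overlapped. HK1 lay between percentiles 89.3 and 95.1 of all genes, PGK1 between 66.5 and 78.8 and PKM between 43.6 and 81.3.

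GAPDH, the most abundant of these mRNAs, had low values. They were 1.66 and 1.98 for G3BP1 in untreated cells, and under AS 1 library was listed at 0 and the other was at 1.04. For G3BP2 they were 1.85 and 1.60 in untreated cells, and under AS 1.67 and a value listed at 0. PGAM1 was below the library median in all 8 libraries, between 1.20 and 1.93. PFKL was at 1.86 to 2.69, ENO1 at 1.77 to 2.39, GPI at 1.32 to 2.38, TPI1 at 1.65 to 2.03 and ALDOA at 1.04 to 2.06. PFKL and PKM were above the library median in 7 libraries, GPI and ENO1 in 2, and ALDOA, TPI1 and GAPDH in 1.

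The eCLIP values were higher for genes that span more of the genome. Over all genes the correlation with the log10 of the gene span was between 0.819 and 0.827 in the 8 libraries, and that with the summed span of a gene's transcripts between 0.864 and 0.874, as descriptions across genes of the same libraries. Among the 10 members the mean value was higher for larger gene spans (ρ = 0.83, n = 10 genes) and lower for higher mRNA levels in siCtrl (ρ = −0.61). The separate parts of span and level were not tested. Per kb of gene span, HK1 was at 2.97 times the library median (median of 8 libraries), TPI1 at 3.0, PKM at 2.93 and PFKL at 1.51, while GPI was at 0.414 and PGK1 at 0.483. Per kb of summed transcript span, TPI1 was at 1.56 times the library median and above it in 7 of 8 libraries, but HK1 was at 0.930, PKM at 0.684 and PFKL at 0.761. GAPDH (1.37 and 0.446) and ENO1 (1.24 and 0.355) changed sides in the same way. TPI1 was thus above the median per length on both scales, GPI, PGK1 and ALDOA below it on both, and the side of HK1, PFKL, GAPDH, ENO1 and PKM depended on the length that was used. PGAM1 went the other way, from 0.632 per kb of gene span to 1.01 per kb of summed span. The 3 members low on both scales share their spans with same-strand genes. ATP7A, with eCLIP values of 2.62 to 3.48, overlaps 139657 bases of PGK1. The readthrough gene covers 6251 bases of ALDOA, and ENSG00000266953 6099 bases of GPI. How signal at these loci was assigned was not tested, so these values per length may not be those of the members alone.

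The words CCAGGCTGG and CCAGCCTGG, reverse complements of each other, were counted in the members. They are the DNA letters of the motif that the study found most often in its G3BP1 peaks and also in G3BP2 peaks. The counts here cover whole transcripts and gene spans, not those peaks. In the canonical transcripts, read on the sense strand, 3 of 10 members held either word, ALDOA 1 time and GPI and PGK1 2 times each, where 28.0% of 19892 transcripts did. In the gene spans, introns included, all 10 held them, as did 87.4% of 19845 genes. HK1 had 122 matches, or 9.25 per 10 kb, and GPI had 10.0 per 10 kb, against a median of 4.04 (quartiles 1.86 and 7.39) for all genes and 2.61 in TPI1. GPI thus held many words per kb beside low eCLIP values per length, and TPI1 few words beside high ones. A match is a description of letters, not a binding site.

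**Figure D5:**
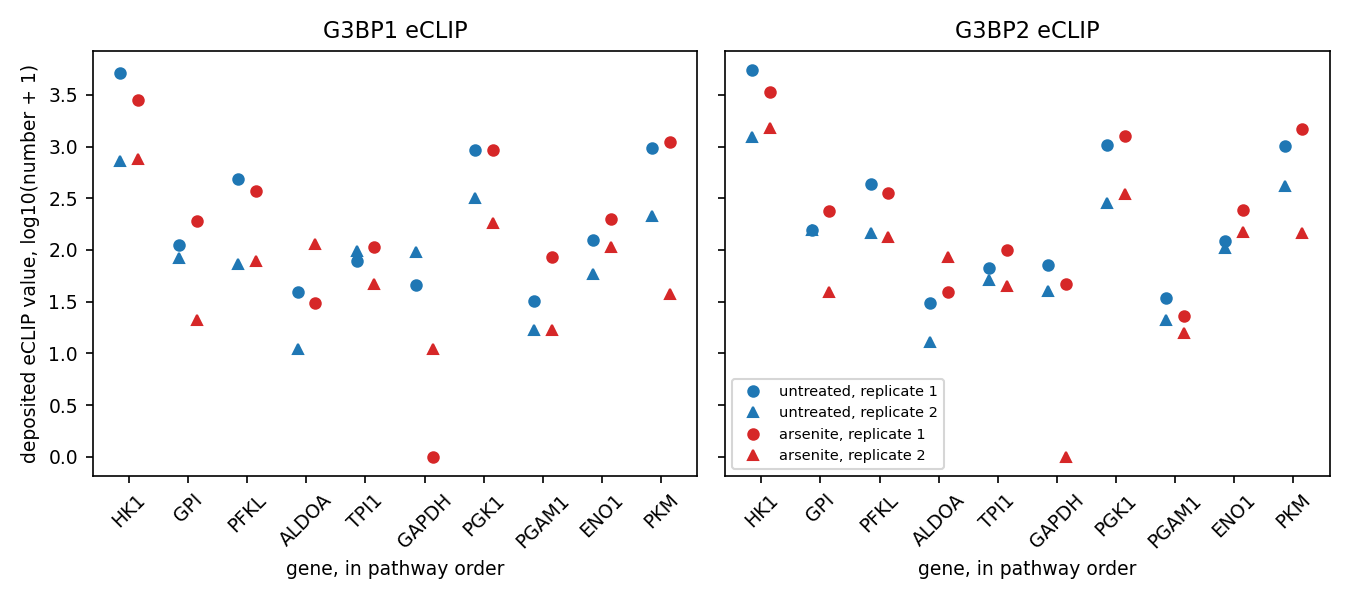
Deposited eCLIP values, log10(number + 1), of the 10 glycolytic enzyme genes in pathway order for G3BP1 and G3BP2, with 1 point per library for untreated and AS-treated cells. HK1 is highest in all 8 libraries, the points of the conditions overlap for most genes, and GAPDH has 2 AS-treated points at 0.

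AS-treated and untreated eCLIP libraries were compared with limma over all genes, with Benjamini-Hochberg adjustment. No member passed an adjusted p of 0.05 for either protein, with an adjusted p of 1.0 for all 10 in both. Over all genes 0.0% of 18888 passed for G3BP1 and 0.0105% of 19035, which is 2 genes, for G3BP2. At an unadjusted p under 0.05 there were 46 genes for G3BP1 and 159 for G3BP2, and GAPDH was the only member among them in both. With the listed zeros taken as values, its log10 change for G3BP1 was −1.30 ± 0.61 (SE), with an unadjusted limma p of 0.0344 and an adjusted p of 1.0. For G3BP2 it was −0.89 ± 0.43 (SE), with an unadjusted limma p of 0.0392 and an adjusted p of 1.0. Without the AS-treated library listed at 0, the change was −0.78 for G3BP1 and −0.06 for G3BP2. Without the other AS-treated library it was −1.82 for G3BP1 and −1.73 for G3BP2, the latter with an adjusted limma p of 0.0630 that takes the lone library to vary like the untreated ones.

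ALDOA had the largest positive change of the members, 0.46 for both proteins, with SEs of 0.63 and 0.43. When a library was left out it ran from 0.175 to 0.745 for G3BP1 and from 0.27 to 0.65 for G3BP2. Its mean for G3BP1 was 1.32 ± 0.389 (SD, n = 2) in untreated cells and 1.78 ± 0.403 under AS, and for G3BP2 it was 1.3 ± 0.269 and 1.76 ± 0.240. The readthrough gene that covers 6251 bases of ALDOA on the same strand did not show the same rise for G3BP1. It had 2.55 and 1.95 without AS and 2.57 and 1.61 with AS. For G3BP2 it had 2.47 and 1.87 without AS and 2.5 and 2.08 with AS. How signal was divided between the 2 genes was not tested. The changes of the other members lay between −0.36 (PKM) and 0.23 (ENO1) for G3BP1 and between −0.21 (GPI) and 0.23 (ENO1) for G3BP2, all within 1 SE. Those SEs include the unequal size of the libraries. With all libraries scaled to the same total, ENO1 changed by 0.343 ± 0.188 (SE) for G3BP1 and 0.297 ± 0.163 for G3BP2. PGAM1 changed by 0.319 ± 0.185 for G3BP1 and PGK1 by 0.158 ± 0.077 for G3BP2. Of the 10 members 5 were then higher and 5 lower for G3BP1, and 6 and 4 for G3BP2. The groups did not overlap for GAPDH in G3BP1, lower under AS, as in 2.27% of genes, nor for ALDOA and ENO1 in G3BP2, higher under AS, as in 1.51%. No member was higher without overlap in G3BP1, where 0.852% of genes were, and none was lower in G3BP2, where 3.35% were. The median change of all genes was −0.12 for G3BP1 and −0.08 for G3BP2.

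G3BP2 and G3BP1 were compared within a treatment, and the AS change was compared between them by an interaction term. No member passed in any of these tests, with adjusted p-values of 1.0 by limma, and 0.0% of 19004 genes in untreated cells, 0.0% of 18934 under AS and 0.0% of 19259 for the interaction did so. At an unadjusted p under 0.05 there were 101, 22 and 48 genes, with 0 members. Of the members 6 had higher and 3 lower means for G3BP2 in untreated cells and 1 (PGK1) was equal, and under AS 7 were higher and 3 lower. The G3BP2 libraries were also the larger ones, and with all libraries scaled to the same total 5 were higher and 5 lower in untreated cells and 4 higher and 6 lower under AS. None of the other pathway genes tested, 72 or 73 of the 77, passed an adjusted p of 0.05 in these tests. With 2 libraries in each group, differences within the SEs given above were not detectable.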

How the data were processed

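The members and the gene lists were chosen with earlier results of these data known. For the siCtrl, siG3BP1, siG3BP2, Total and SG libraries, the authors aligned reads with HISAT2 2.1.0 and deposited StringTie TPM for protein-coding genes. With fastp, HISAT2 and StringTie the authors made 1 deposited value per transcript and rRNA-depleted library, named a signal here since each column sums to over the total TPM allows. For eCLIP, the authors used fastp, STAR and CLIPper, and the deposited values are on a log10 scale, unscaled between libraries. Deposited SMInput libraries were not analysed here. The authors' reference was GENCODE 41 on GRCh38, and here annotation and exon sequences came from GENCODE 44. Transcripts were matched by versioned ID, leaving out 1 member transcript of another version.

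SG classes used TPM + 1, fold thresholds of 2 and 0.5 and a minimum of 1 TPM. Other RNA-seq calls used ratios of 2 and 0.5 with the higher library above 1, and medians of ratios used genes above 1 in both libraries. Pairs of single libraries received no test. The eCLIP fits used limma 3.58.1 (R 4.3.3) with a mean-dependent prior variance over genes above 0 in at least 2 libraries. Scripts ran in Python 3.11.15 with pandas 2.3.3, numpy 2.4.6, scipy 1.17.1 and matplotlib 3.10.9, and were tested on simulated data. Summed transcript spans used the transcripts listed in the deposited table.

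All members are named. Of the 5 lists, genes above 10 TPM in a library and past a fold rule, at most 3 per list and comparison by absolute log2 fold, and the most abundant isoenzyme of a step were eligible. Some genes of the lists are not reported here. LDHA and the genes said to be named after their values were seen fall outside this rule. Alternatives covered pseudocounts, thresholds, minimum values, median scaling, eCLIP scaling, a replicate block and leaving out each eCLIP library. The canonical transcript of each gene in place of the sum was added after seeing the data.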

Additional observations from a re-analysis of the deposited data

How the results depend on the processing

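The members' lack of calls in the knockdown and Total comparisons held under every alternative. For SG against Total, members SG-enriched went from 0 to 1 (HK1) with a pseudocount of 0.1, and members SG-depleted from 4 to 1 with thresholds of 4 and 0.25 and to 8 with the median ratio set to 1. Over all genes, SG-enriched numbered 5608 with a pseudocount of 10, 5332 with the wider thresholds and 4505 with median scaling, and SG-depleted 538 and 3271 in the last pair. With a pseudocount of 1, genes called higher and lower numbered 138 and 243 in siG3BP1, 150 and 353 in siG3BP2, and 625 and 205 in the rRNA-depleted genes, with 156 higher in Total and 1404 and 449 transcripts. At a ratio of 1.5 they numbered 684 and 1088, 604 and 1648, 3688 and 1032, in Total 641 and 5427, and 19808 and 4253 transcripts with 3 and 1 of the members. Without a minimum they numbered 1351 and 1409, 1192 and 1805, 6605 and 3802, in Total 1261 higher, and 25410 and 13677 transcripts with 3 and 8 of the members. With the median ratio set to 1 they numbered 678 and 1951 in Total, 850 higher among rRNA-depleted genes, and 3057 and 3266 transcripts with 1 of the members lower. With the canonical transcript of each gene 833 and 412 genes were called.

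In eCLIP no member passed an adjusted p of 0.05 under any alternative. With block and scaling, GAPDH for G3BP1 had an unadjusted limma p of 0.0116, with 635 genes under 0.05. ENO1 for G3BP2 had 0.0286 by the same test, with 678 genes under 0.05. The 2 genes that passed for G3BP2 became 0 with scaling, without the filter, and with the replicate number as a block, alone or with scaling, and 0 to 12 when a library was left out, 12 without AS replicate 1. A correlation taken over same-numbered libraries of untreated and AS-treated cells was 0.194 for G3BP1 and 0.136 for G3BP2. Between G3BP1 and G3BP2 it was 0.555 in untreated cells and 0.501 under AS. It does not measure how far the values agree between libraries, since each library followed the summed span at 0.864 to 0.874. With only a pair of numbers it does not show that same-numbered libraries were paired. Between the proteins the block moved the genes at an unadjusted p under 0.05 from 101 to 554 in untreated cells and from 22 to 582 under AS, with 0 members among them and 0 genes past an adjusted p. The interaction passed for 6 genes without the filter and for 0 to 1 when a library was left out, and G3BP2 against G3BP1 in untreated cells for 0 to 41, the latter without G3BP1 replicate 1. Scaling reversed small changes, for G3BP1 in PFKL (0.068) and TPI1 (0.020), and for G3BP2 in HK1 (0.013) and PFKL (0.013), with and without the block. When a library was left out, changes for G3BP1 ran from −0.545 to 0.305 in HK1, −0.665 to 0.295 in GPI, −0.46 to 0.37 in PFKL, −0.27 to 0.09 in TPI1, −0.475 to 0.235 in PGK1, −0.14 to 0.56 in PGAM1 and −1.09 to 0.38 in PKM. For G3BP2 they ran from −0.385 to 0.265 in HK1, −0.60 to 0.19 in GPI, −0.30 to 0.18 in PFKL, −0.12 to 0.23 in TPI1, −0.20 to 0.37 in PGK1 and −0.655 to 0.355 in PKM. The causes were not tested. TPM gives no depth, single RNA-seq libraries give no replicate error, and duplicate eCLIP libraries of unequal size limit what could be called.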
